A study of Drosophila melanogaster with 6 samples.

Results

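Programmed cell death in the wing imaginal disc of Drosophila melanogaster, the larval epithelium that forms the adult wing and part of the thorax, is run by a small set of genes, 10 of which are considered here: rpr, hid, grim, skl, Diap1, Dronc, Drice, Dark, p53 and Corp. They were found as probe sets paired with a single gene symbol, and 6 of the 10, grim, skl, Dronc, Dark, p53 and Corp, were matched to 8 of the 18769 probe sets tested, among 11981 genes named in this way. The genes rpr, hid, Diap1 and Drice are not analysed here. Expression had been measured on 6 arrays with total RNA from wing discs, 30 of which were dissected per condition, from wall-climbing larvae of the third instar grown at 25 °C.

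The LID RNAi group (2 arrays) carried the lidk06801 allele together with act5Cgal4>lid RNAi, so that knockdown and mutant allele come together. The product of lid, whose symbol is now Kdm5, removes methyl groups from lysine 4 of histone H3. The GFP RNAi group (2 arrays) was w1118 with act5Cgal4 driving a GFP hairpin, as a knockdown control without the lid allele. The wild type group (2 arrays) is titled so and has no RNAi in the field for it, although its genetic background field names w1118 with act5Cgal4>RNAi. A control probe set, whose transcript the tables used here do not name, read 11.87 and 11.32 on the LID RNAi arrays, 11.91 and 11.85 on the GFP RNAi arrays, and 3.07 and 2.96 on the wild type arrays. The wild type arrays thus lie at background where both hairpin groups are high, so each comparison with wild type below also differs in this signal. Whether wild type carried the driver is not settled by the labels. The act5C promoter is active in nearly all cells, so the hairpins were not limited to the disc. Whether discs for the 2 arrays of each group were dissected separately is not stated in the labels, so the p-values measure only the spread between these samples, which may be technical.

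Dying fly cells switch on rpr, hid, grim or skl, whose proteins bind the inhibitor Diap1 and free caspases from it. The initiator caspase Dronc is then activated on a scaffold built from Dark, the fly relative of Apaf-1, and cuts effector caspases such as Drice. After DNA damage, checkpoint kinases activate the transcription factor p53, which induces rpr, skl and hid in imaginal discs. Corp, named as a companion of reaper, is a p53 target that restrains p53 in turn.

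All levels below are RMA log2 values per probe set, in which a difference of 1 is a doubling of signal. Signals of 27 control probe sets for Bacillus subtilis transcripts put the background at up to 4.82 (their 95% point). Levels of different probe sets are not set against each other. In whole discs, fewer cells of a type and less RNA per cell cannot be told apart. Changes are differences of group means with the standard error (SE) of a limma fit to all 6 arrays, and a gene counted as changed at a Benjamini-Hochberg adjusted p under 0.05 over all 18769 probe sets. Array medians lay between 6.31 and 6.43. Kdm5 read 8.36 and 8.04 in LID RNAi discs, 10.32 and 10.45 in GFP RNAi discs, and 10.42 and 10.33 in wild type discs. It fell by 2.19 ± 0.13 (SE) in LID RNAi against GFP RNAi, to 22.0% (limma adjusted p = 0.0309). All 13 measured wing disc markers were above background in each group, with a mean level of 11.03 to 11.05 in LID RNAi discs, 11.02 to 11.11 in GFP RNAi discs, and 11.04 to 11.12 in wild type discs. The mean of 10 haemocyte markers, which mark blood cells, stood at 9.95 to 10.24 in LID RNAi discs, 9.00 to 9.38 in GFP RNAi discs, and 8.61 to 9.39 in wild type discs. The mean of 9 salivary gland markers stood at 8.07 to 9.10, 7.60 to 8.22 and 7.83 to 8.02 in the same groups. Without overlap, LID RNAi was also highest in the mean of 6 muscle and myoblast markers (9.82 to 9.99, 9.40 to 9.62 and 9.39 to 9.52), of 4 tracheal markers (10.63 to 10.78, 10.42 to 10.54 and 10.52 to 10.61) and of 10 eye and leg disc markers (8.37 to 8.42, 8.21 to 8.26 and 8.22 to 8.30). In LID RNAi against GFP RNAi 6 of 6 muscle and myoblast markers and 4 of 4 tracheal markers were above 0. In LID RNAi against wild type 2 of the 6 and 1 of the 4 were below 0. Mlc1 had the widest change of the muscle and myoblast list, at 1.07 and 1.32. Of the 10 eye and leg disc markers, however, 7 were below 0 in LID RNAi against GFP RNAi (median change -0.05). Against wild type 6 of the 10 were below 0 in LID RNAi (median change -0.06). The widest change in the eye and leg disc list was that of lz, at 1.72 and 2.2, and lz is also among the haemocyte markers. The part of all these cell types in the results below was not tested. LID RNAi replicate 2 had the widest gap between the 3′ and 5′ probe sets of GAPDH, at 3.54, against 2.67 to 3.17 on the other 5 arrays.

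Of the 6 measured genes 0 changed in LID RNAi against GFP RNAi, where 0.469% of all probe sets passed the test. Of all probe sets 0.165% rose there and 0.304% fell. A single one, skl, fell in LID RNAi against wild type, where 2.34% passed, 0.852% of all probe sets upward and 1.49% downward. In GFP RNAi against wild type 0 of 6 changed and 0.863% of all probe sets passed, 0.437% upward and 0.426% downward. At an unadjusted p under 0.05 the counts in limma were 4 of 6 in LID RNAi against GFP RNAi, and 3 of 6 in each of the other comparisons, where 12.4%, 16.9% and 11.4% of all probe sets lay under that value. The arrays of the groups did not overlap for 5 of 6 genes in LID RNAi against GFP RNAi (41.8% of all probe sets), for 4 of 6 in LID RNAi against wild type (47.1%) and for 5 of 6 in GFP RNAi against wild type (45.6%). Both LID RNAi arrays lay below all 4 control arrays for 3 of the 6 genes, skl, p53 and Corp, and for 12.8% of all probe sets. They lay above all 4 for 0 of the 6 and for 10.6% of all probe sets. The comparisons share arrays, so their values for a gene are not independent.

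**Figure D1:**
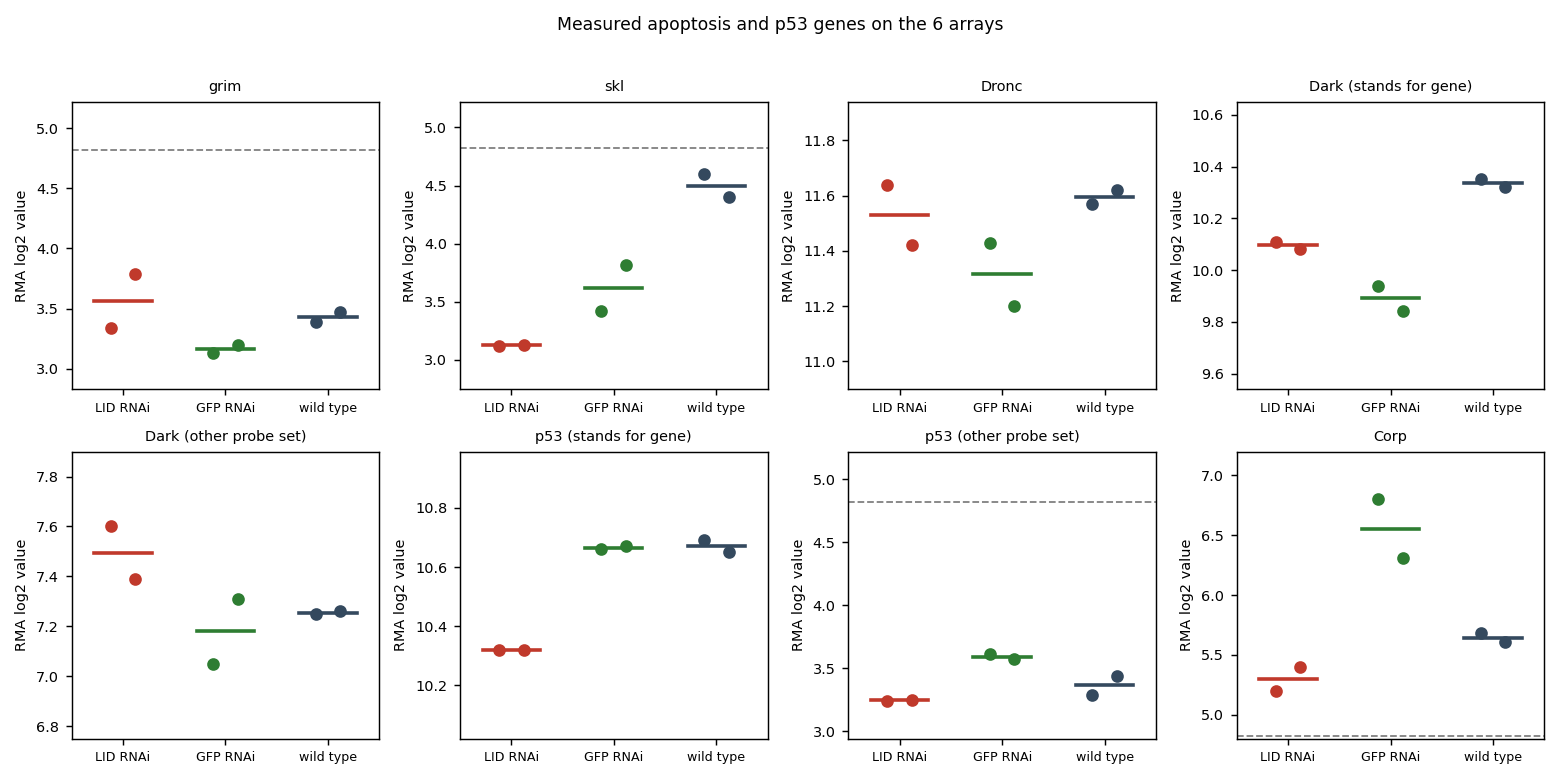
RMA log2 values of the 8 probe sets on each array (points) with the group mean (line), for LID RNAi, GFP RNAi and wild type. Each panel has its own vertical axis, and the dashed line marks the background at 4.82. LID RNAi arrays are lowest for skl, p53 and Corp, and grim, skl and the second p53 probe set lie under the dashed line in all groups.

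The death inducers come first in the pathway, and both measured ones were at background. The probe set for skl, whose product binds Diap1, read 3.12 and 3.13 in LID RNAi discs, 3.42 and 3.82 in GFP RNAi discs, and 4.60 and 4.40 in wild type discs. The groups do not overlap, and wild type lay highest, though still at or below 4.82. Relative to wild type, skl fell by 1.38 ± 0.16 (SE, n = 2 arrays per group) in LID RNAi (limma adjusted p = 0.0311). It stood at -0.49 in LID RNAi against GFP RNAi (limma adjusted p = 0.324) and at -0.88 in GFP RNAi against wild type (limma adjusted p = 0.128). Since all 3 group means lie at or below background, the levels of skl are not told from it. The call ended without any 1 of the 6 arrays, with adjusted p between 0.0518 and 0.175 and a change between -1.48 and -1.28.

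The probe set for grim, another inducer that binds Diap1, read 3.34 and 3.79 in LID RNAi discs, 3.13 and 3.20 in GFP RNAi discs, and 3.39 and 3.47 in wild type discs. All 6 values lay at background, with the spread within LID RNAi wider than the gap between the controls. The change of grim was 0.40 ± 0.17 (SE) in LID RNAi against GFP RNAi (limma adjusted p = 0.439) and -0.26 in GFP RNAi against wild type (limma adjusted p = 0.652). In LID RNAi against wild type it was 0.14, with a 95% interval from -0.29 to 0.57 (limma adjusted p = 0.737). This last value turned to -0.09 without LID RNAi replicate 2.

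The genes hid, grim, rpr and skl lie in this order on chromosome arm 3L in the gene table of assembly Release 6 plus ISO1 MT, which was used for names and neighbours only. The stretch from hid to skl holds 8 protein-coding genes, of which 6 have a probe set: CG7320, CheA75a, CG5103, CG13700, grim and skl. All 6 were at or below background in each of the 3 groups, as were 28.5% of all probe sets. On the far side of hid the next genes CG13699 and CG7330 were at background too, while geko read 10.38 in LID RNAi discs, 10.31 in GFP RNAi discs, and 10.69 in wild type discs on average. On the far side of skl, CG32196 averaged 5.92, 6.08 and 5.58 in the same groups. CG4306, the gene after it, averaged 5.67, 5.73 and 5.89. Among the measured genes of the interval and these flanks, only skl passed the test, in LID RNAi against wild type alone.

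Further down the pathway, the caspase Dronc and its scaffold Dark were both well above background, and neither passed the test. Dronc read 11.64 and 11.42 in LID RNAi discs, 11.43 and 11.20 in GFP RNAi discs, and 11.57 and 11.62 in wild type discs. The LID RNAi arrays overlap those of both controls. The change of Dronc was 0.22 ± 0.12 (SE) in LID RNAi against GFP RNAi, with a 95% interval from -0.10 to 0.54 (limma adjusted p = 0.574). Against wild type it was -0.06 in LID RNAi, with an interval from -0.38 to 0.25, and -0.28 in GFP RNAi. The arrays within LID RNAi, and those within GFP RNAi, lie about as far apart as the group means.

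Dark read 10.11 and 10.08 in LID RNAi discs, 9.94 and 9.84 in GFP RNAi discs, and 10.35 and 10.32 in wild type discs. The 3 groups do not overlap, and LID RNAi lay between the controls. The change in LID RNAi was 0.20 ± 0.07 (SE) against GFP RNAi (limma adjusted p = 0.388) and -0.24 ± 0.07 (SE) against wild type (limma adjusted p = 0.211). The largest gap for Dark was between the controls, at -0.44 in GFP RNAi against wild type (limma adjusted p = 0.112). A second probe set for Dark read 7.60 and 7.39 in LID RNAi discs, 7.05 and 7.31 in GFP RNAi discs, and 7.25 and 7.26 in wild type discs. There the change in LID RNAi was 0.31 against GFP RNAi and 0.24 against wild type, so the probe sets differ in sign in the second of these comparisons.

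Of the 2 regulators, p53 was lower on both LID RNAi arrays than on all 4 control arrays without passing the test. It read 10.32 and 10.32 in LID RNAi discs, 10.66 and 10.67 in GFP RNAi discs, and 10.69 and 10.65 in wild type discs. The 4 control arrays overlap each other and the LID RNAi arrays lie apart below them. The change of p53 in LID RNAi was -0.34 ± 0.07 (SE) against GFP RNAi, or 78.8% of the control signal, with a 95% interval from -0.52 to -0.17 (limma adjusted p = 0.157). It was -0.35 ± 0.07 (SE) against wild type, with an interval from -0.52 to -0.17 (limma adjusted p = 0.0888). In that comparison p53 passed the test in 2 alternative fits, where dim probe sets were left out (adjusted p = 0.0487) and where the variance followed the signal (adjusted p = 0.0407). Over all alternatives other than leaving out an array, its change lay between -0.35 and -0.27 (limma adjusted p from 0.0407 to 0.189). Between the controls the difference in p53 was -0.00, with an interval from -0.17 to 0.17.

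A second p53 probe set was at background, at 3.24 and 3.25 in LID RNAi discs, 3.61 and 3.57 in GFP RNAi discs, and 3.29 and 3.44 in wild type discs. Its change in LID RNAi was -0.34 against GFP RNAi and -0.12 against wild type. The p53 gene makes several transcripts, and which of them each probe set reads is not given in the sources used here.

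Corp was highest on the GFP RNAi arrays and lowest on the LID RNAi arrays, and passed the test in none of the comparisons. It read 5.20 and 5.40 in LID RNAi discs, 6.80 and 6.31 in GFP RNAi discs, and 5.68 and 5.61 in wild type discs. The groups do not overlap, and GFP RNAi was highest with the widest spread. The change in LID RNAi was -1.25 ± 0.18 (SE) against GFP RNAi, or 41.9% of the control signal, with a 95% interval from -1.73 to -0.78 (limma adjusted p = 0.0964). Against wild type it was -0.35 ± 0.18 (SE) with an interval from -0.82 to 0.13 (limma adjusted p = 0.440). In GFP RNAi against wild type Corp stood at 0.91 ± 0.18 (SE, limma adjusted p = 0.157).

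**Figure D2:**
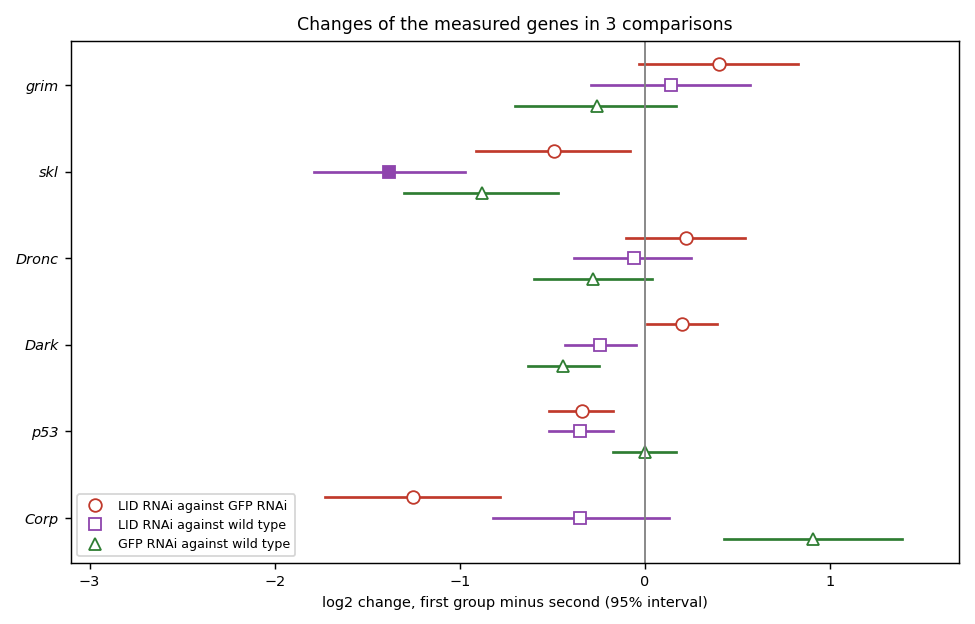
Log2 change of the 6 measured genes, each by its probe set with the highest mean, in 3 comparisons, with 95% intervals from the limma fit that are not adjusted for the number of probe sets. Filled symbols passed the test. Only skl in LID RNAi against wild type is filled, p53 lies at -0.34 and -0.35 in both LID RNAi comparisons, and Corp spans from -1.25 to 0.91.

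The wider pathway was read from 64 other genes of cell death and DNA damage, none of which was at background in all 3 groups. In LID RNAi against GFP RNAi 0 rose and 1 fell, where 0.469% of all probe sets passed, with a median change of -0.03, against 0.009 over all probe sets. In LID RNAi against wild type 0 rose and 2 fell, where 2.34% of all probe sets passed (median -0.02, and -0.009 over all probe sets). In GFP RNAi against wild type 2 rose and 0 fell, where 0.863% of all probe sets passed (median 0.03, and -0.018 over all probe sets). Both LID RNAi arrays were lowest for 9 of the 64 genes and highest for 11, beside 12.8% and 10.6% of all probe sets.

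Of 4 other caspases measured, 1 fell in LID RNAi against both controls, Strica. Strica, a caspase with a long prodomain rich in serine and threonine, read 9.19 and 9.28 in LID RNAi discs, 10.18 and 10.07 in GFP RNAi discs, and 9.82 and 9.90 in wild type discs. The LID RNAi arrays lie below all 4 control arrays, and the spread within each group is small beside that gap. In the comparison with GFP RNAi it fell by 0.89 ± 0.08 (SE), leaving 54.0% of the control signal (limma adjusted p = 0.0436). In the comparison with wild type it fell by 0.63 ± 0.08 (SE), leaving 64.8% (limma adjusted p = 0.0414). Without any 1 of the 6 arrays both calls ended, with adjusted p from 0.0908 to 0.262 against GFP RNAi and from 0.0830 to 0.215 against wild type. The change stayed between -0.94 and -0.84 and between -0.67 and -0.58 over the arrays left out.

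Damm, another fly caspase, differed most between the controls. It read 6.61 and 6.23 in LID RNAi discs, 7.33 and 7.42 in GFP RNAi discs, and 5.18 and 4.52 in wild type discs, where 1 of the arrays was within background. Both hairpin groups lie above wild type, and GFP RNAi lies highest. Damm rose by 2.52 ± 0.26 (SE) in GFP RNAi against wild type (limma adjusted p = 0.0384), whose mean of 4.85 lies next to the background at 4.82, so no exact fold is given. Without any 1 array that call ended (adjusted p from 0.0742 to 0.266). In LID RNAi the change of Damm was 1.56 ± 0.26 (SE) against wild type (limma adjusted p = 0.0652) and -0.95 ± 0.26 (SE) against GFP RNAi (limma adjusted p = 0.259). Against wild type it passed in 3 alternative fits, with median centring (adjusted p = 0.0406), with dim probe sets left out (adjusted p = 0.0498) and where the variance followed the signal (adjusted p = 0.0342). Over all alternatives other than leaving out an array, its change there lay between 1.56 and 1.64 (limma adjusted p from 0.0342 to 0.153).

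The effector caspase Dcp-1, a close relative of Drice, read 11.47 and 11.43 in LID RNAi discs, 11.49 and 11.51 in GFP RNAi discs, and 11.60 and 11.66 in wild type discs. Its change in LID RNAi was -0.05 against GFP RNAi, with a 95% interval from -0.23 to 0.13, and -0.18 against wild type. Dredd, the initiator caspase of the Imd immune pathway, read 11.31 and 10.51 in LID RNAi discs, 11.47 and 11.00 in GFP RNAi discs, and 11.38 and 11.37 in wild type discs. The low value came from LID RNAi replicate 2, the array with the widest gap between transcript ends, whose part in the value was not tested. Without that array the change of Dredd against GFP RNAi was 0.08, in place of -0.32.

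**Figure D3:**
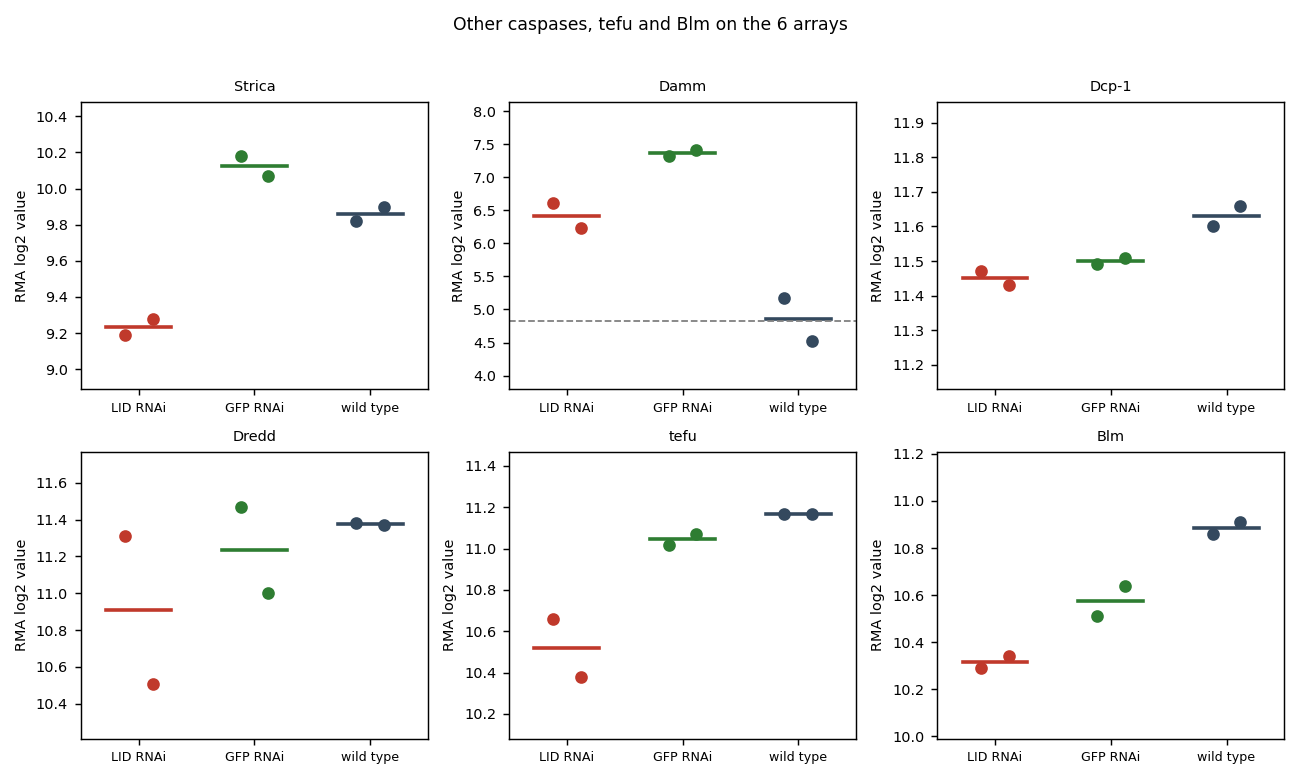
RMA log2 values on each array (points) and group means (lines) of Strica, Damm, Dcp-1, Dredd, tefu and Blm in LID RNAi, GFP RNAi and wild type, each panel with its own axis. The dashed line in the Damm panel marks the background at 4.82. The LID RNAi arrays lie below the others for Strica, Dcp-1, tefu and Blm, and Damm is highest in GFP RNAi.

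Of 7 other IAP family members and ubiquitin regulators 0 passed in any of the 3 comparisons. The median change was 0.00 in LID RNAi against GFP RNAi, and the widest was 0.15 for Roc1a, a RING subunit of cullin ligases (limma adjusted p = 0.641). Of 5 Bcl-2 family and mitochondrial factors 0 passed, and their median was 0.17 in LID RNAi against GFP RNAi and 0.31 against wild type. Buffy, a Bcl-2 family member that protects cells, read 7.44 and 6.86 in LID RNAi discs, 6.57 and 6.29 in GFP RNAi discs, and 6.50 and 5.87 in wild type discs. Its LID RNAi arrays were the highest of the 6, and the change was 0.72 ± 0.30 (SE) against GFP RNAi (limma adjusted p = 0.443). Debcl, the other Bcl-2 family member, stood at 0.17 against GFP RNAi and 0.31 against wild type. EndoG, a mitochondrial nuclease, stood at 0.40 and 0.38 in the same comparisons (limma adjusted p = 0.296 and 0.218). Of the 5 factors 4 were above 0 and 1 was below in each of these comparisons. Beside them 52.1% and 48.0% of all probe sets were above 0.

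Of 6 caspase adaptors and DNA fragmentation factors 0 passed. Fadd, the adaptor that joins Dredd to the Imd complex, read 9.53 and 9.44 in LID RNAi discs, 9.13 and 9.11 in GFP RNAi discs, and 9.06 and 8.94 in wild type discs. The LID RNAi arrays lie above all 4 controls, with a change of 0.36 ± 0.08 (SE) against GFP RNAi (limma adjusted p = 0.201) and 0.48 ± 0.08 (SE) against wild type (limma adjusted p = 0.0683). In the second comparison Fadd passed with median centring (adjusted p = 0.0456) and with dim probe sets left out (adjusted p = 0.0431). Over all alternatives other than leaving out an array, its change there lay between 0.48 and 0.55 (limma adjusted p from 0.0431 to 0.159). Of the haemocyte markers 10 of 10 were above 0 in LID RNAi against GFP RNAi, with a median change of 0.82 and 0 passing. Of all probe sets 52.1% were above 0 there. Against wild type 8 of the 10 were above 0 in LID RNAi and 1 was below, with a median of 0.81. A single marker passed there, where 2.34% of all probe sets passed and 48.0% were above 0. The part of haemocytes in the values of Fadd and Buffy was not tested.

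In the DNA damage response, 1 of 16 measured genes of the DNA damage checkpoint and repair passed in LID RNAi against wild type and 0 in each other comparison. That gene was Blm, a RecQ helicase of homologous repair, with 10.29 and 10.34 in LID RNAi discs, 10.51 and 10.64 in GFP RNAi discs, and 10.86 and 10.91 in wild type discs. The 3 groups do not overlap, and GFP RNAi lies between the others. Blm fell by 0.57 ± 0.08 (SE) in LID RNAi against wild type, to 67.2% (limma adjusted p = 0.0485). The call ended without any 1 array (adjusted p from 0.0937 to 0.244), with median centring (-0.50, adjusted p = 0.0765) and with a robust variance estimate (adjusted p = 0.0509). The change was -0.26 in LID RNAi against GFP RNAi (limma adjusted p = 0.315).

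The gene tefu encodes the fly ATM, a kinase that acts on double-strand breaks. It read 10.66 and 10.38 in LID RNAi discs, 11.02 and 11.07 in GFP RNAi discs, and 11.17 and 11.17 in wild type discs. As for p53, both LID RNAi arrays lie below all 4 controls. The change in LID RNAi was -0.52 ± 0.11 (SE) against GFP RNAi (limma adjusted p = 0.190) and -0.65 ± 0.11 (SE) against wild type (limma adjusted p = 0.0743). In the second comparison tefu passed where the variance followed the signal (adjusted p = 0.0272). Over all alternatives other than leaving out an array, its change there lay between -0.65 and -0.57 (limma adjusted p from 0.0272 to 0.166).

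Another 3 genes, of the end joining that reseals double-strand breaks, were chosen after their values were seen, and 0 of them passed. DNAlig4 is on the checkpoint and repair list, while Irbp and Ku80 are on the p53 response list below. Irbp, the Ku70 subunit, read 10.23 and 10.27 in LID RNAi discs, 10.20 and 10.39 in GFP RNAi discs, and 9.79 and 9.77 in wild type discs. Its change against wild type was 0.47 in LID RNAi (limma adjusted p = 0.0928) and 0.51 in GFP RNAi (limma adjusted p = 0.126). The ligase gene DNAlig4 stood at 0.33 and 0.47 in the same comparisons (limma adjusted p = 0.183 and 0.156). The partner of Irbp, Ku80, was -0.08 in LID RNAi and 0.28 in GFP RNAi against wild type. Its widest change was in LID RNAi against GFP RNAi, at -0.36 ± 0.08 (SE, limma adjusted p = 0.199), where Irbp and DNAlig4 stood at -0.05 and -0.14. Ku80 read 9.71 and 9.57 in LID RNAi discs, 9.97 and 10.04 in GFP RNAi discs, and 9.73 and 9.72 in wild type discs.

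Of 9 genes on the p53 response list 1 passed, GstE1, in GFP RNAi against wild type. GstE1, a glutathione transferase known for detoxification, read 11.52 and 11.64 in LID RNAi discs, 12.03 and 12.32 in GFP RNAi discs, and 10.91 and 10.93 in wild type discs. It rose by 1.26 ± 0.12 (SE) in GFP RNAi against wild type, a 2.39-fold difference (limma adjusted p = 0.0359). That call ended without any 1 array (adjusted p from 0.0771 to 0.232). In LID RNAi GstE1 stood at 0.66 against wild type (limma adjusted p = 0.0826), and passed where the variance followed the signal (adjusted p = 0.0279). Over all alternatives other than leaving out an array, its change there lay between 0.66 and 0.74 (limma adjusted p from 0.0279 to 0.104). The repair gene agt, which removes alkyl groups from DNA, had the widest change of this list in LID RNAi against GFP RNAi, at -0.61 ± 0.13 (SE, limma adjusted p = 0.186).

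Of 10 measured genes of death signalling through JNK, and of 8 of the engulfment of dying cells, 0 passed in any of the 3 comparisons. For puc, the JNK phosphatase that JNK itself induces, the change in LID RNAi was -0.33 ± 0.09 (SE) against GFP RNAi (limma adjusted p = 0.271) and -0.10 against wild type. The adaptor gene ced-6, which acts with the engulfment receptor drpr, stood at -0.27 ± 0.13 (SE, limma adjusted p = 0.524) and -0.18.

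**Figure D4:**
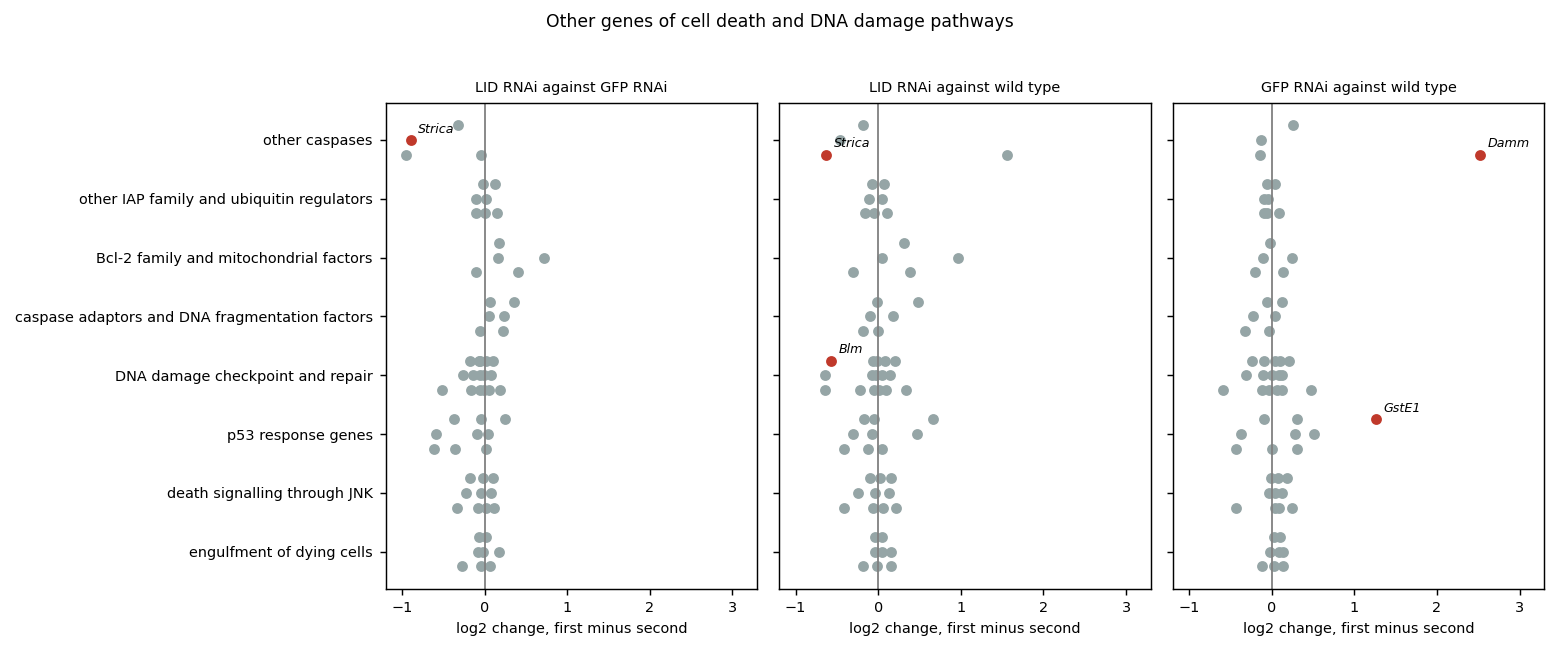
Log2 change of each measured gene of the other lists in the 3 comparisons of the groups, a point per gene, spread vertically within a list for legibility only. Red points passed the test and are named: Strica in both LID RNAi comparisons, Blm against wild type, and Damm and GstE1 in GFP RNAi against wild type.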

How the data were processed

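Total RNA (25 ng per sample, per the labels' protocols) was amplified, labelled with biotin and hybridised to 1 array per sample. The deposited values are log2 signals of probe sets. RMA is the method that the submitters' processing notes name for them. The version and probe annotation used by the authors are not given in the sources used here. No further scaling was applied. Of 18952 probe sets 183 controls were left out. Probe sets were named through the platform annotation, with symbols updated by gene ID, and a gene was represented by its probe set with the highest mean. The fit used limma 3.58.1 in R 4.3.3 with 1 mean per group on all 6 arrays, 3 residual and 1.77 prior degrees of freedom, and two-sided tests. In simulated data 200 probe sets were changed in LID RNAi, the noise was independent between arrays, and the groups were otherwise alike. The shares recovered hold for these settings only. In LID RNAi against GFP RNAi the fit recovered 9 of 67 (13.4%) 1.5-fold changes, 27 of 54 (50%) 2-fold changes and 68 of 79 (86.1%) 4-fold changes. Genes that did not pass are therefore not shown to be unchanged. With 2 arrays per group, their number limits the precision. Named were the measured members, up to 4 passing genes per list and comparison or else the gene with the widest change against GFP RNAi, and Dcp-1, Dredd, Damm, tefu, Irbp, Ku80, DNAlig4, Debcl and EndoG, chosen after their values were seen. Damm also passed by that rule in GFP RNAi against wild type. Members and lists were chosen with earlier results of these data known. The alternatives were other scaling, a filter on dim probe sets, fits of 2 groups, other variance models, a replicate block and leaving out each array.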

Additional observations from a re-analysis of the deposited data

How the results depend on the processing

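With 2 arrays per group, every call named above for a gene (skl, Strica in both comparisons, Blm, Damm and GstE1) ended when any 1 array was left out. Where that array was of a compared group, the fit takes the spread of the lone array from the remaining groups. Where it was of the third group, the fit gives the same result as the 2-group fit and is no separate alternative. The 2-group fits leave fewer degrees of freedom, and a probe set at background limits what skl can show. The count of measured members that passed in LID RNAi against wild type was 1, and 0 in the 2-group fit and with the replicate block, 2 with a variance trend (skl and p53), and 0 to 0 over the arrays left out. With the filter on dim probe sets it was 1 again, but the gene was p53, since skl was removed. In the other comparisons it was 0 under all alternatives run.

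The count of all probe sets passing in LID RNAi against GFP RNAi was 88, and 189 with the filter, 3 in the 2-group fit, 247 with the trend, 12 with the replicate block and 0 to 6 over the arrays left out (1644 to 3307 at an unadjusted p under 0.05 in limma). In LID RNAi against wild type it was 439, and 99, 784 and 200 in the 2-group fit, with the trend and with the block, and 24 to 324 over the arrays left out. In GFP RNAi against wild type it was 162, and 90, 325 and 41 in the same order, and 4 to 90. The replicate numbers mark no shared origin in the labels, and the deviations of same-numbered arrays correlated across probe sets at 0.298, 0.0646 and 0.223 for the 3 pairs of groups. The block ended those 6 calls (adjusted p = 0.0639 for skl, 0.118 and 0.0825 for Strica, 0.0714 for Blm, 0.0660 for Damm and 0.0660 for GstE1) and started none.

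Of 498 values of the 24 named genes under alternatives other than leaving out an array, 467 kept direction and side of the threshold, 18 lost and 9 gained a call, and 4 changed sign, all of them near 0. With median centring, Dronc in LID RNAi against wild type turned to 0.01, and p53 and EndoG in GFP RNAi against wild type to 0.04 and 0.02. With quantile normalization p53 there turned to 0.01. Strica lost both calls with median centring (adjusted p = 0.0608 and 0.0862) and quantile normalization (0.0596 and 0.0652). Blm lost its call with median centring (0.0765) and a robust variance estimate (0.0509). The 2-group fits ended all 6 calls, with adjusted p = 0.0518 for skl, 0.147 and 0.106 for Strica, 0.106 for Blm, 0.0742 for Damm and 0.0771 for GstE1. Over the arrays left out, sign changes fell within these ranges: -0.17 to 0.04 for Dronc and -0.09 to 0.37 for grim in LID RNAi against wild type, -0.04 to 0.14 for Roc1a there, -0.72 to 0.08 for Dredd and -0.14 to 0.05 for Irbp in LID RNAi against GFP RNAi, and, in GFP RNAi against wild type, -0.02 to 0.02 for p53, -0.07 to 0.56 for Buffy, -0.37 to 0.09 for Dredd and -0.14 to 0.11 for EndoG. The causes were not tested.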
